A study of Homo sapiens with 4 samples.

Results

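Fc receptors, the signalling chains they use and the kinase SYK were followed at the transcript level in THP1 monoblasts that received a mimic of miR-511-5p. The 10 genes were FCGR1A, FCGR1B, FCGR2A, FCGR2B, FCGR3A, FCAR, FCER1A, FCER1G, TYROBP and SYK. Non-control probes were taken whose gene name in the array annotation was one of these, which gave 11 probes for 9 of the 10 genes, out of 34127 probes for 27193 gene names on the array. No probe carried the name FCGR1A. THP1 is an established human monoblastic leukemia cell line, and the cells received 30 nM of either the miR-511-5p mimic (2 arrays) or the negative control #1 mimic (2 arrays). RNA was harvested on day 2 in each of 2 independent experiments, and each experiment gave 1 array per treatment, all on 1 slide with a single dye. Every array thus comes from transfected cells of the same line. The mimic supplies the miRNA from outside, on top of any made from the cell's own gene. Whether and how strongly miR-511 alters the transcripts of the Fc receptor system in these cells is the question that the comparison of both treatments addresses.

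Fc receptors bind the constant part of antibodies and couple antibody-coated particles to phagocytosis, release of cytokines and killing by myeloid cells. FCGR1A, FCGR2A and FCGR3A bind IgG and activate the cell, FCGR2B binds IgG and inhibits it, FCAR binds IgA, and FCER1A is the IgE-binding chain of the high affinity IgE receptor. FCGR1A, FCGR3A, FCAR and FCER1A lack a signalling motif of their own and rely on the FCER1G chain, whereas FCGR2A carries its motif in its own tail. TYROBP, also known as DAP12, is a related chain that serves other myeloid receptors. Src-family kinases phosphorylate the tyrosines of these motifs, and SYK docks there and passes the signal on.

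The mature miRNA supplied by the mimic is given by RefSeq (GRCh38.p14) at chr10:17845122-17845142 on the plus strand. It is shown because its seed (bases 2 to 8, in capitals) is the stretch through which a miRNA mostly recognises its targets. The other lines give the first 30 of the 60 bases of selected array probes. The FCGR1B probe is shown because it stands for a family of nearly identical gene copies, and those of FCGR2B and FCER1A because their signals did not exceed background.
hsa-miR-511-5p: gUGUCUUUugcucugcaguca
FCGR1B: tttagtgaacactgttctctgggtgacaat
FCGR2B: aatcccactaatcctgatgaggctgacaaa
FCER1A: agctccgcgtgagaagtactggctacaatt
The complement of the whole seed, AAAGACA, occurred on the printed strand of 331 of the 34127 probes (0.97%) and of 0 of the 11 Fc receptor, chain and SYK probes. The complement of bases 2 to 7, AAGACA, lies within AAAGACA, and it was held by 2.83% of all probes and by 0 of the 11. The complement of bases 3 to 8, AAAGAC, also lies within AAAGACA, and it was held by 2.53% of all probes and by 1 of the 11, the FCER1G probe. Only the probe's own 60 bases were searched, on 1 strand, and the remainder of each transcript was not analysed here.

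The arrays had 64.8% to 69.3% of their probes well above background and no saturated spot. The monoblastic label was checked with 10 monocytic or myeloid markers, of which 9 had a probe by name, and these 9, among them CD33, SPI1, CSF1R and MPO, were well above background on all 4 arrays. Of the markers of cells known for particular Fc receptors, 0 of 4 NK cell genes (NCAM1, NCR1, KLRD1 and GNLY), and 1 of 4 mast cell and basophil genes (MS4A2) were so on every array, as were 2 of 4 T cell and 2 of 2 erythroid genes. Among B cell genes, CD79A (10.42 and 10.41 with miR-511, 10.29 and 10.34 with the control mimic) and CD79B (6.21 and 5.59 against 5.64 and 5.61) exceeded background on each array, and MS4A1 did so on none. The summed log2 level of the myeloid list was 15.20 and 15.15 with miR-511 against 15.18 and 15.04 with the control mimic. That of the NK cell list was 4.40 and 4.28 against 4.47 and 4.60, but its genes were well above background on no array, so this sum measures no level. That of the mast cell and basophil list was 8.15 and 7.96 against 8.05 and 7.79. Within the last list CPA3, a mast cell protease, stood at 4.20 and 4.11 with miR-511, well above background on both arrays, and at 3.72 and 3.44 with the control mimic, where only the array of experiment 1 was. The probe thus passed the filter through the miR-511 arrays alone. limma called it at an unadjusted p = 0.0122 (adjusted p = 0.9999). Since it was tested through the treatment in which it was higher, nothing is concluded from this call. No size is given since 1 of the 2 control values was not well above background, and its part in the results below was not tested. The brightest KIT probe was well above background only in experiment 1, at 4.51 with miR-511 and 4.76 with the control mimic, TPSAB1 was so on no array, and the MS4A2 probes are given with FCER1A. In RNA from a whole culture, a smaller number of expressing cells and less RNA per cell cannot be told apart.

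For 6 of the 10 gene names, namely FCGR1B, FCGR2A, FCAR, FCER1G, TYROBP and SYK, 7 probes were well above background on all 4 arrays. Those of FCGR2B, FCGR3A and FCER1A were well above background on no array. None of the 7 probes differed between miR-511 and control mimic at an unadjusted p below 0.05, the study's threshold for the moderated t-test. The study also required a t-test p below 0.05 over replicate spots of a probe, which was not applied here. Across the whole array the same limma test called 498 of 22638 probes (2.20%), and after Benjamini-Hochberg adjustment it called 0, with a smallest adjusted p of 0.790. The 95% intervals of the 7 differences all included 0 and together ran from 0.688-fold (TYROBP, lower bound) to 1.76-fold (TYROBP, upper bound). These intervals, and the SEs below, come from a fit without a term for the experiment, although the experiment pairs the arrays. With that term the SE was smaller for all but the FCAR probe. It was 0.120 in place of 0.247 for TYROBP, 0.077 in place of 0.136 for FCER1G, and 0.183 in place of 0.169 for FCAR. The direction was the same in both experiments for 3 of the 7 probes, against 51.0% of all tested probes. With normexp background correction in place of the scanner's own, some of these no longer agreed. The FCER1G probe then had differences of -0.02 and 0.10, and the less bright FCGR2A probe of -0.06 and 0.01. For 5 of the 7, the control arrays of both experiments lay further apart than the treatments did on average. A distance between single arrays tends to exceed one between means of 2 arrays. Over all tested probes the median absolute values were 0.137 and 0.0792, so the count is not particular to these probes. With 2 arrays per treatment, the number of arrays limits the precision of every value given here.

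**Figure D1:**
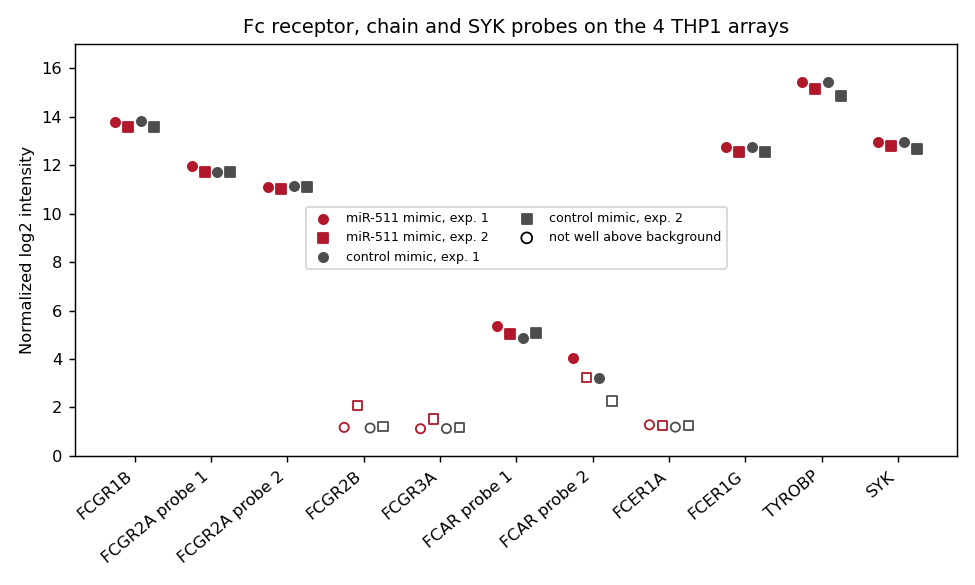
Normalized log2 intensity of the 11 probes (horizontal axis, by gene, with probe 1 the brighter one of a gene) on each of the 4 arrays, with circles for experiment 1 and squares for experiment 2, red for miR-511 mimic and grey for control mimic, and open symbols for values not well above background. The FCGR2B, FCGR3A and FCER1A probes have open symbols throughout, and the heights of different probes are not comparable with each other since each probe binds with its own efficiency.

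The probe named FCGR1B lies at chr1:120927294-120927353 on the minus strand (hg19, as all probe positions here). Its normalized log2 intensity was 13.80 with miR-511 and 13.80 with the control mimic in experiment 1, and 13.57 and 13.56 in experiment 2. The treatments were thus nearly superimposed within each experiment, and both were lower in experiment 2. The mean difference was 0.0039 on the log2 scale (SE 0.145, limma unadjusted p = 0.98, adjusted p = 0.9999), with a 95% interval of 0.762- to 1.32-fold. RefSeq lists FCGR1B as an older name of FCGR1BP, a transcribed pseudogene, and another transcript annotated to the same probe belongs to FCGR1CP. Since FCGR1A, the gene of the high affinity IgG receptor CD64, and these copies are nearly identical, the signal cannot be assigned to one of them, and no value for FCGR1A alone is given.

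FCGR2A, which encodes the IgG receptor CD32A, was measured by 2 probes. The brighter one (chr1:161488834-161488893, plus strand) stood at 11.96 with miR-511 and 11.72 with the control mimic in experiment 1, and at 11.73 and 11.72 in experiment 2. Both miR-511 values lay above both control values, a pattern seen in 1 of the 7 probes and in 15.6% of all tested probes. The difference was 0.24 in experiment 1 and 0.01 in experiment 2, whereas with normexp background correction it was 0.17 and 0.14. The mean difference was 0.13 (SE 0.119, unadjusted p = 0.339). The other probe (chr1:161488022-161488081, plus strand) stood at 11.11 and 11.13 in experiment 1 and at 11.03 and 11.09 in experiment 2, so that its groups overlapped. Its mean difference of -0.04 (SE 0.093, unadjusted p = 0.697) had the opposite sign. The array annotation also assigns this second probe to FCGR2C, a neighbouring gene of nearly the same sequence, so both genes may contribute to its signal.

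FCGR3A encodes the IgG receptor CD16A of NK cells and some monocytes. Its probe (chr1:161511829-161511888, minus strand) gave 1.12 with miR-511 and 1.13 with the control mimic in experiment 1, and 1.52 and 1.16 in experiment 2. None of these 4 values was well above background, and on 3 of the 4 arrays the scanner software had replaced the signal by a surrogate value. The inhibitory receptor FCGR2B (CD32B) showed the same picture. Its probe maps to chr1:161647120-161647289 on the plus strand, 170 bases for a 60-base probe, so that it crosses an exon junction. It gave 1.18 and 1.15 in experiment 1 and 2.07 and 1.22 in experiment 2, again well above background on 0 of 4 arrays and a surrogate on 3. No fold change is given for either gene, as both treatments lack a measured level.

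The IgA receptor FCAR (CD89) gave low signals, and its 2 probes differed in detection. The brighter probe (chr19:55401659-55401718, plus strand) exceeded background on each of the 4 arrays, at 5.36 with miR-511 and 4.87 with the control mimic in experiment 1, and at 5.01 and 5.09 in experiment 2. Its difference was 0.49 in experiment 1 and -0.08 in experiment 2, and the groups overlapped. The mean difference of 0.21 (SE 0.169, unadjusted p = 0.279, interval 0.840- to 1.59-fold) was the largest of the 7, and with normexp background correction in place of the scanner's own it was 0.01. The dimmer probe (chr19:55396800-55396859, plus strand) stood at 4.02 and 3.23 in experiment 1 and at 3.25 and 2.27 in experiment 2. It was well above background only on the arrays of experiment 1, that is on 1 of 2 arrays per treatment, and was therefore not tested. In experiment 1 its difference was 0.79, or 0.15 with normexp background correction, and in experiment 2 neither array had a level well above background.

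FCER1A, the IgE-binding chain, was printed 10 times per array (chr1:159276034-159277595, plus strand, a span of 1562 bases across an intron). The averaged values were 1.28 with miR-511 and 1.19 with the control mimic in experiment 1, and 1.25 and 1.26 in experiment 2. Of the 10 spots, 9 or 10 were surrogate values on each array, and the only spot above background, on the miR-511 array of experiment 2, was marked by the scanner software and left out. By contrast, both probes of MS4A2, which encodes the beta chain of the same IgE receptor, exceeded background on each of the 4 arrays. The brighter MS4A2 probe stood at 7.91 and 7.77 in experiment 1 and at 7.78 and 7.60 in experiment 2 (mean difference 0.16, SE 0.115, unadjusted p = 0.243), and the other had a mean difference of -0.13 (SE 0.0917, unadjusted p = 0.228).

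Both signalling chains were measured far above background. The FCER1G probe (chr1:161188875-161188934, plus strand) stood at 12.73 with miR-511 and 12.76 with the control mimic in experiment 1, and at 12.53 and 12.53 in experiment 2. The differences within experiments, -0.02 and -0.0049, were smaller than the distance of -0.22 between the control arrays. The mean difference was -0.01 (SE 0.136, unadjusted p = 0.92, interval 0.765- to 1.28-fold). TYROBP (chr19:36395312-36395371, minus strand) stood at 15.42 and 15.44 in experiment 1 and at 15.13 and 14.84 in experiment 2. The control array of experiment 2 was the lowest of the 4, 0.60 below that of experiment 1, and the treatments overlapped. The difference was -0.02 in experiment 1 and 0.30 in experiment 2, with a mean of 0.14 (SE 0.247, unadjusted p = 0.609).

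SYK, the kinase that binds the phosphorylated chains, was also printed 10 times per array (chr9:93658142-93658201, plus strand). Its averaged level was 12.96 with miR-511 and 12.97 with the control mimic in experiment 1, and 12.78 and 12.68 in experiment 2. The mean difference was 0.04 (SE 0.146, unadjusted p = 0.783, interval 0.781- to 1.36-fold), with -0.01 in experiment 1 and 0.10 in experiment 2. The 10 spots of an array had an SD of 0.053 to 0.116 on the log2 scale. Relative to the 75th percentile of its array, the median spot stood at 2.68 with miR-511 and 2.66 with the control mimic in experiment 1, and at 2.51 and 2.41 in experiment 2. The spots of both treatments overlapped in each experiment. Spots of 1 array share 1 RNA sample and were averaged before the test.

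**Figure D2:**
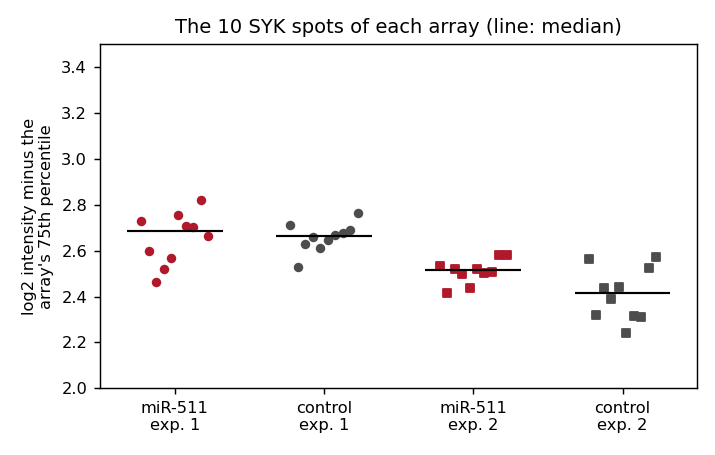
The log2 intensity of the 10 SYK spots on each array minus the 75th percentile of that array (vertical axis, which does not start at 0), with a line at the median. The treatments overlap in experiment 1 (medians 2.68 and 2.66) and in experiment 2 (2.51 and 2.41).

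In 5 of the 7 tested probes, those of FCGR1B, FCER1G, TYROBP and SYK and the less bright one of FCGR2A, both treatments were lower in experiment 2 than in experiment 1, a pattern that 34.0% of all tested probes had. The distance was -0.25, -0.22, -0.60, -0.28 and -0.04 between the control arrays and -0.22, -0.20, -0.28, -0.18 and -0.08 between the miR-511 arrays, in the same order. Over all tested probes, the median absolute distance between the control arrays was 0.137, against 0.112 between treatments in experiment 1 and 0.102 in experiment 2. The cultures, the RNA and the array handling of the experiments cannot be told apart in this respect. When the experiment number was included as a block, 0 of the 7 probes passed the unadjusted threshold, against 3.95% of all tested probes in that fit.

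**Figure D3:**
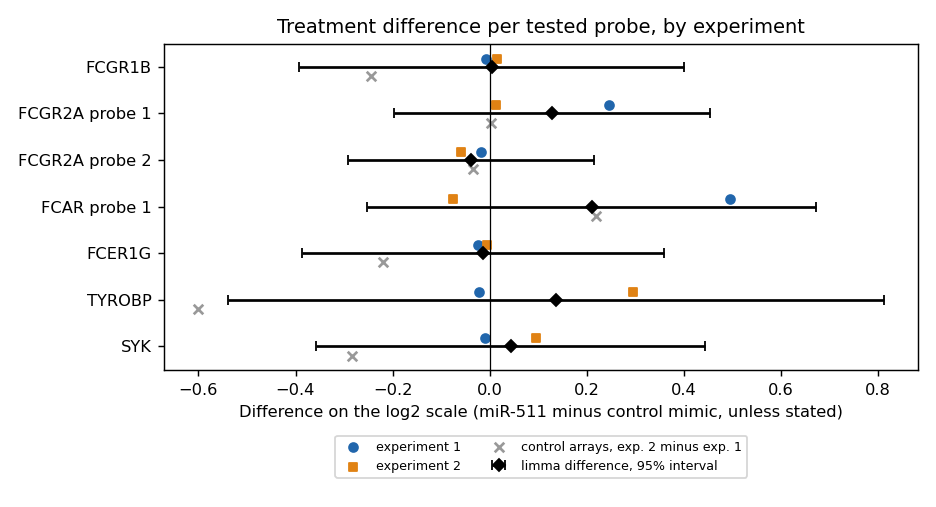
Difference between miR-511 and control mimic on the log2 scale (horizontal axis) for the 7 tested probes, with circles for experiment 1, squares for experiment 2, and diamonds with bars for limma's mean difference and 95% interval. Crosses give the control array of experiment 2 minus that of experiment 1, all 7 bars cross 0, and the cross of TYROBP (-0.60) lies furthest out.

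The surrounding pathway was described with 118 further genes in 6 lists, of which 96 had a tested probe. At the brightest probe of each gene, limma called 0 of 96 at an unadjusted p below 0.05, against 2.12% of all 18001 tested gene names, and 0 of the 130 tested probes of these genes (smallest unadjusted p 0.0569, for a VAV2 probe). The median difference was 0.01 on the log2 scale, as over all gene names (0.01), with 55 genes higher and 41 lower. With the experiment number as a block, 2 of the 96 genes passed, against 3.88% of all gene names. These were CD300LB and PIK3R1. CD300LB, a receptor that pairs with TYROBP, had differences of 0.58 and 0.50 (mean 0.54, limma's blocked unadjusted p = 0.0071, unadjusted p = 0.12 without the block). Its probe gave low signals, 5.82 with miR-511 and 5.24 with the control mimic in experiment 1, and 5.25 and 4.75 in experiment 2. PIK3R1, the regulatory subunit of PI3-kinase, had differences of 0.36 and 0.22 (mean 0.29, limma's blocked unadjusted p = 0.0466, unadjusted p = 0.0798 without the block). After adjustment over all probes the smallest blocked p of the array was 0.969. A less bright probe of the exchange factor VAV2 also passed limma's blocked test (mean 0.74, blocked unadjusted p = 0.0269), as did one of the ubiquitin ligase CBLB (blocked unadjusted p = 0.0368). The VAV2 probe gave low signals, 5.22 with miR-511 and 4.77 with the control mimic in experiment 1, and 5.04 and 4.02 in experiment 2. The CBLB probe was tested through its control arrays (4.11 and 4.21) and was well above background on 1 of the 2 miR-511 arrays (3.70, not well above background, and 3.96), so no size is given for it. Since these control arrays are also where it was higher, nothing is concluded from its blocked result. The brightest probes of VAV2 and CBLB had mean differences of 0.0025 and 0.01.

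Of the 16 other Fc receptors and Fc-binding proteins, 7 were tested and 0 passed, with a median difference of 0.01. FCGRT, the neonatal Fc receptor that recycles IgG, stood at 15.26 with miR-511 and 15.31 with the control mimic in experiment 1 and at 15.05 and 15.15 in experiment 2, a mean difference of -0.08 (SE 0.128, unadjusted p = 0.585). FCGR2C had a difference of -0.17 in experiment 1 and of 0.15 in experiment 2 (mean -0.01, SE 0.133). The highest mean difference of the list, chosen after the values were seen, was 0.37 for FCRL1 (SE 0.151, unadjusted p = 0.0706), with 0.60 in experiment 1 and 0.14 in experiment 2. The signals of this probe were low, at 4.53 and 3.94 and then at 4.20 and 4.06. The other FCRL1 probe was well above background on no array. FCER2, the low affinity IgE receptor, FCRL2 to FCRL5 and PIGR were among the genes that did not pass the filter, and FCGR3B had no probe by name.

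Of 15 genes listed as receptors known to pair with FCER1G or TYROBP, 8 were tested and 0 passed, with a median of 0.03. The list and the tested genes include CD247, which is itself a signalling chain and not a receptor. TREM2, a lipid receptor that signals through TYROBP, stood at 9.60 and 9.77 in experiment 1 and at 10.11 and 10.17 in experiment 2 (mean -0.11, SE 0.244, unadjusted p = 0.665). OSCAR, a collagen receptor that uses FCER1G, stood at 9.76 and 9.73 and then at 9.62 and 9.55 (mean 0.05, SE 0.12, unadjusted p = 0.691). GP6, the platelet collagen receptor, named after the values were seen, passed the filter through the control arrays alone (3.36 and 3.69), and with miR-511 it was not well above background (3.52 and 2.21), so no size is given for its difference.

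Among 14 kinases of the Src, Tec and Syk families and their regulators, 10 were tested and 0 passed (median 0.05). LYN, the Src-family kinase that phosphorylates receptor motifs in many myeloid cells, was nearly level at 12.26 and 12.25 in experiment 1 and 12.20 and 12.18 in experiment 2 (mean 0.01, SE 0.094). PTPRC, the phosphatase CD45 that keeps these kinases active, stood at 12.16 and 12.21 and then at 12.00 and 11.78 (mean 0.09, SE 0.184), and 2 of its other probes had mean differences just below 0 (-0.0059 and -0.0081). The lowest mean difference of the list, chosen after the values were seen, was -0.17 for BTK, a Tec-family kinase (SE 0.308, unadjusted p = 0.601), with opposite directions in experiment 1 (0.38) and experiment 2 (-0.73).

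All 30 adaptors and lipid-signalling enzymes were tested and 0 passed, with a median of 0.03. The adaptor LAT2 stood at 15.36 and 15.32 in experiment 1 and 15.21 and 15.27 in experiment 2 at its brightest probe (mean -0.01, SE 0.104). A dimmer LAT2 probe was lower with miR-511 in both experiments, with a mean difference of -0.47 (SE 0.211, unadjusted p = 0.0873). VAV1, the exchange factor for Rac in blood cells, stood at 13.83 and 13.75 and then at 13.75 and 13.82 (mean -0.0009, SE 0.095). The lowest mean difference of the list, chosen after the values were seen, was -0.53 for PIK3R2, a regulatory subunit of PI3-kinase (SE 0.299, unadjusted p = 0.149), with -0.97 in experiment 1 and -0.08 in experiment 2.

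Of 14 inhibitors of Fc receptor signalling, 13 were tested and 0 passed, with a median of -0.01. The lipid phosphatase INPP5D (SHIP1), which FCGR2B recruits, stood at 15.27 and 15.25 in experiment 1 and at 15.13 and 15.17 in experiment 2 (mean -0.01, SE 0.105). The adaptor DOK3 had a mean difference of 0.02 at its brightest probe (SE 0.106), with 13.12 and 12.98 and then 13.03 and 13.12. Its other 2 probes were lower with miR-511 in both experiments, with mean differences of -0.32 (SE 0.225, unadjusted p = 0.22) and -0.31 (SE 0.235, unadjusted p = 0.25). The lowest mean difference at a brightest probe, chosen after the values were seen, was -0.18 for the lipid phosphatase INPPL1 (SE 0.229, unadjusted p = 0.481), with 0.24 in experiment 1 and -0.59 in experiment 2.

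Of 29 genes of the actin machinery of the phagocytic cup, 28 were tested and 0 passed (median 0.0031). ARPC2, a subunit of the Arp2/3 complex that branches actin, stood at 16.00 and 16.00 in experiment 1 and 15.96 and 15.89 in experiment 2 (mean 0.03, SE 0.0963). The membrane-binding motor MYO1C stood at 15.94 and 15.67 and then at 15.59 and 15.76, with opposite directions in the experiments (mean 0.05, SE 0.152). The lowest mean difference at a brightest probe, chosen after the values were seen, was -0.38 for CDC42, a small GTPase of actin assembly (SE 0.187, unadjusted p = 0.108), and its other 2 probes had mean differences of -0.06 and 0.05. A dimmer probe of CFL1, also chosen after the values were seen, had a mean difference of -0.715 (SE 0.666, limma's unadjusted p = 0.341), with -1.63 in experiment 1 and 0.20 in experiment 2. The brightest CFL1 probe had 0.02.

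**Figure D4:**
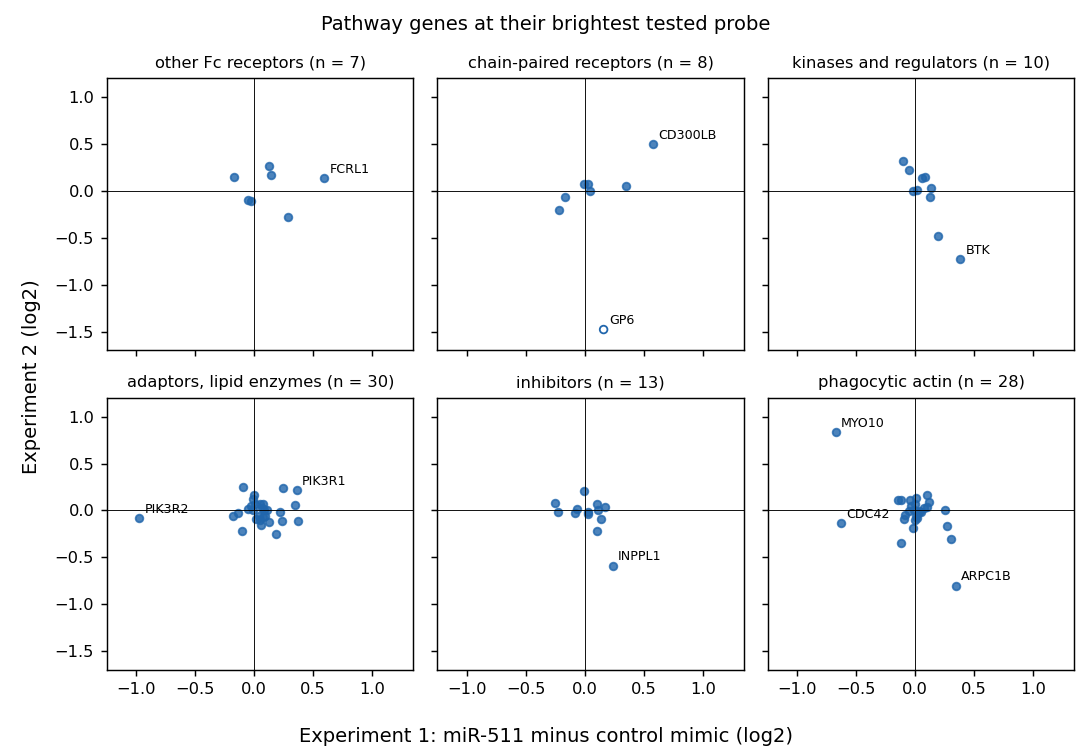
Log2 difference between miR-511 and control mimic in experiment 1 (horizontal axis) and experiment 2 (vertical axis) for the 96 pathway genes at their brightest tested probe, 1 panel per list. Genes past 0.25 in the mean or past 0.5 in 1 experiment carry their name, with CD300LB (0.58 and 0.50) to the upper right. The open circle (GP6) is a gene not well above background with miR-511.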

How the data were processed

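Members and pathway lists were chosen with earlier results of these data known. The authors deposited 1 scanner file per array from Agilent Feature Extraction (version 10.5.1.1 per the processing notes, 10.7.3.1 per the file headers), in which the processed intensity of a spot is background-subtracted and low spots hold a positive surrogate value. Their deposited value table, on a log2 scale and quantile normalized by the authors, served as an alternative. Probe positions and names are those of the files (hg19), and 10 of the 11 probes matched a RefSeq accession.

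In R 4.3.3, the log2 of the processed intensity of non-control spots was quantile normalized, marked spots (232 to 301 per array) were left out and spots of one probe averaged. A probe with 10 spots counted as above background when over 50% of them were. The test took in a probe when both arrays of 1 treatment or of the other had it well above background. Treatments were compared with limma 3.58.1 (lmFit and eBayes, two-sided, 4.14 total degrees of freedom) at an unadjusted p below 0.05, with Benjamini-Hochberg adjustment over all 22638 tested probes. The functions were tested on simulated data. Named were all members with every probe, each pathway gene with a probe past the threshold, and the 2 brightest genes of each list. Extremes of the lists, CFL1 and genes passing in an alternative were named after their values were seen. A gene was followed by its brightest probe, and others were given where they differed in direction or were called. Summed marker levels are log2 of the normalized signals summed over each list, 1 probe (the brightest) per gene.

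The labels give each array its experiment, which pairs 1 array of either treatment, and same-experiment arrays departed from the means of their treatments with a correlation of 0.271 across probes. A block for the experiment was an alternative. The others were normexp background correction (offset 50), 75th percentile scaling, other filters on dim probes, keeping marked spots, an intensity trend and leaving out each array. The labels name separate experiments but not separate cell stocks. All arrays were on 1 slide, so no slide block was run. The positions of probes within transcripts were not analysed here. Some marker and pathway results are not reported here.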

Additional observations from a re-analysis of the deposited data

How the results depend on the processing

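In every alternative, 0 of the Fc receptor, chain and SYK probes passed the unadjusted threshold of limma, and 0 probes of the whole array passed after adjustment. The number of tested probes called, 498 in the reported setting, was 265 with normexp background correction, 1029 without a filter on dim probes, 894 with the replicate block, 285 with an intensity trend, and between 516 and 1379 when 1 array was left out. The number of pathway genes called was 2 with the replicate block (CD300LB and PIK3R1), 1 with the intensity trend (PIK3R1) and 0 to 5 when 1 array was left out, with 5 of 96 without the miR-511 array of experiment 2 (CD300LB, CDC42, FCRL1, PIK3R1 and PIK3R2), where 1379 probes (6.09%) of the whole array were called, and 2 of 96 without that of experiment 1 (LCK, and GP6, which no miR-511 array showed well above background), where 2.78% were. In these fits the lone array is assumed to vary like those of the other treatment. Values near 0 changed sign: the log2 difference of FCGR1B was -0.000832 with 75th percentile scaling and -0.00806 with normexp, and that of FCER1G was 0.0405 with normexp. The cause was not tested. When 1 array was left out, the difference ranged from -0.119 to 0.127 for FCGR1B, from -0.125 to 0.0959 for FCER1G, from -0.0991 to 0.185 for SYK, from -0.164 to 0.437 for TYROBP and from 0.034 to 0.386 for FCAR. For FCGR2A it ranged from 0.0137 to 0.243 at the brighter probe and from -0.0764 to -0.0009 at the other. FCGR2B, FCGR3A and FCER1A have no value above background, so a change in them below the detection limit could not be measured.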
